A study of Mus musculus with 15 samples.

Results

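The 41 genes described here belong to the integrated stress response and the unfolded protein response. They were taken as a list of symbols and looked up by symbol in RNA sequencing tables of 55359 genes, where all 41 were present. A filter on low counts left 14548 genes to test, among them 40 of the 41; the amino acid transporter gene Slc7a3 did not pass it. By role, the list holds 7 regulators, 11 genes of amino acid and one-carbon synthesis, 5 amino acid transporter genes, 7 feedback and effector genes and 11 genes of folding and degradation in the endoplasmic reticulum (ER).

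The cells were mouse hematopoietic progenitors from fetal liver, immortalized with an estrogen-dependent Hoxb8 and grown in medium with β-estradiol. All groups carried a retrovirus and were sorted for the GFP that marks infected cells. Het DDX41, Het G173R, Het R525H and Het empty were the Ddx41 heterozygous line with a vector for wild-type DDX41, for DDX41 with the substitution G173R, for DDX41 with R525H, or with no insert. WT empty was the line with both copies of Ddx41 and the vector with no insert. Each of these 5 groups had 3 libraries, numbered 1 to 3. The product of Ddx41 is an RNA helicase of the DEAD-box family, and germline variants of the human gene predispose to myeloid malignancy. Each genotype was 1 line, so the loss of a Ddx41 copy cannot be told apart from any other difference between the lines.

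In the integrated stress response, kinases that sense amino acid shortage, ER stress, viral RNA or heme shortage phosphorylate the translation factor eIF2. General protein synthesis then falls while translation of the transcription factor ATF4 rises, and ATF4 with its partners switches on genes that make, import and load amino acids. The unfolded protein response shares the PERK and ATF4 branch and adds ATF6 and IRE1, whose target XBP1 raises chaperones and degradation factors of the ER. Phosphorylation, translation of Atf4 and splicing of Xbp1 were not measured here.

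The libraries held between 22104066 and 49145873 expected counts. The endogenous mouse gene Ddx41 had 29.4, 33.0 and 28.7 CPM in Het empty libraries 1 to 3, against 58.8, 63.4 and 55.6 CPM in WT empty libraries, where CPM is the count scaled to a common library total with TMM factors. It had 34.5, 35.3 and 29.5 CPM in Het DDX41 libraries, 35.2, 36.9 and 27.8 CPM in Het G173R libraries and 32.7, 34.6 and 29.1 CPM in Het R525H libraries, and was not called in these 3 groups over Het empty, so these counts do not show which vector a group holds. Groups follow the sample titles. The files of 12 heterozygous samples carry another code than the title; for 6 of them it is the title code of another group and for 6 it is in no title, so which vector a heterozygous group holds rests on the titles. The summed level of 8 progenitor markers (among them Kit, Cd34 and Myb) lay between 2791 and 3618 CPM in all libraries. Single markers of this list differed between the lines in both directions. Ptprc had 289, 293 and 292 CPM in Het empty libraries, against 172, 185 and 182 CPM in WT empty libraries. Flt3 had 231, 259 and 211 CPM in Het empty libraries, against 340, 389 and 370 CPM in WT empty libraries. Of the 8, Cd48 and Hoxa9 were near 0 in every library, at no more than 0.104 and 0.0501 CPM. The sum of 6 hepatocyte markers reached at most 1.30 CPM. Libraries numbered 3 stood apart in every group, and what the number stands for is not stated. In bulk RNA, fewer cells of a type and less RNA per cell cannot be told apart.

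The start regions of 4 genes are shown because they hold motifs through which the ATF4 and ATF6 arms are known to act, and the values of these genes are given below. The C/EBP-ATF response element, at which ATF4 binds with C/EBP partners, was searched as TGATGNAA. The ER stress response element, at which ATF6 binds with NF-Y, was searched as CCAAT and CCACG with 9 bases between them. Both strands were read in RefSeq windows of the mouse build GRCm38.p6 that run from 250 bases before to 50 bases after the annotated start. Capitals mark the matches, and each window is printed 5′ to 3′ on the strand of its gene. Asns lies at chr6:7693160-7693459, Slc7a11 at chr3:50443564-50443863, Hsp90b1 at chr10:86705395-86705694 and Calr at chr8:84846882-84847181, all on the minus strand.
Asns: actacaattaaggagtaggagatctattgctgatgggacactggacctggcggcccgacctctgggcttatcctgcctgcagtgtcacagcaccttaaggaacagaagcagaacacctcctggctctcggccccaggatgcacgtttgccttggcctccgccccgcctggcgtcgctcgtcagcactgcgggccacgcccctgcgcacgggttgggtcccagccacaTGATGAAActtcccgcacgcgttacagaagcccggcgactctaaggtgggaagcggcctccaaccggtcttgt
Slc7a11: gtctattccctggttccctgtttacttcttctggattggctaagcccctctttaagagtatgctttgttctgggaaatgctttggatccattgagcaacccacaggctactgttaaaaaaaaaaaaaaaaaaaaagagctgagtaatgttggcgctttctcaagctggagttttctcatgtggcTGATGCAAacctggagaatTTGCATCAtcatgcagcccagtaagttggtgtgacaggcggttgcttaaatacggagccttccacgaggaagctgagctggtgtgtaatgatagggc
Hsp90b1: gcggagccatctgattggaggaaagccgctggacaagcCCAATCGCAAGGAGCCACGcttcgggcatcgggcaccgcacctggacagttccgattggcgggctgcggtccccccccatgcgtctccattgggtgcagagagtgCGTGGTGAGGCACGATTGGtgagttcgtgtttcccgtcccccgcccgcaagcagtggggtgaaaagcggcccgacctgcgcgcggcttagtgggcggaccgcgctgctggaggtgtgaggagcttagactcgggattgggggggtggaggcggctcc
Calr: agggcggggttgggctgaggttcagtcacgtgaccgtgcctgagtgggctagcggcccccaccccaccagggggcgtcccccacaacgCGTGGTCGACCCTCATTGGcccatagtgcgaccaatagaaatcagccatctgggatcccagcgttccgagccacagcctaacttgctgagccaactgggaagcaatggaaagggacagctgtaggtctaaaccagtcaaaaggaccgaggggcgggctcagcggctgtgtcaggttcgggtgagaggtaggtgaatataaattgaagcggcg

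Such a window was found for 35 of the 41 genes. The C/EBP-ATF element was in 8 of the 35 (22.9%), against 4.51% of 27025 gene windows. These were Atf3, Trib3, Nupr1, Asns, Pycr1, Slc7a11, Chac1 and Herpud1, and Slc7a11 had matches on both strands. The ER stress response element was in 5 (14.3%), against 0.137% of all windows, namely Hspa5, Hsp90b1, Pdia6, Calr and Creld2. ERSE-II, a related ER stress element, matched in Herpud1 only among the 35 (2.86%, against 0.0444% of all windows). The UPR element TGACGTGG, a site known for ATF6 and XBP1, matched in 0 of the 35 and in 0.714% of all windows. No 2 motifs overlapped, and a match describes letters, not binding. The genes were listed as members of these responses and the motifs were searched for their known part in them. An excess over all windows is therefore no test of either.

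Levels were compared between genes by TPM, which allows for gene length. Over the 15 libraries the most abundant members were ER chaperone genes. Calr, a calcium-binding lectin chaperone, averaged 1213 ± 128 TPM (SD, n = 15). Hsp90b1, the ER form of HSP90, averaged 529 ± 46.5 TPM, and Hspa5, the chaperone BiP, averaged 469.9 ± 28.8 TPM; the ranges of Hsp90b1 and Hspa5 over libraries overlapped. Next came 2 genes of serine synthesis, Psat1 at 415 ± 36.3 TPM and Phgdh at 257 ± 20.3 TPM. Atf4 itself averaged 207 ± 26.6 TPM. Gdf15, a secreted stress cytokine, averaged 0.247 TPM. Cth averaged 3.42 to 6.43 TPM in the heterozygous groups and 0.880 TPM in WT empty, and Aldh1l2 3.56 to 5.997 TPM in the heterozygous groups and 0.0233 TPM in WT empty. Pycr1 averaged 3.49 to 4.50 TPM in the heterozygous groups and 2.80 TPM in WT empty. Slc7a3 averaged 0.0740 TPM over the 15 libraries.

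**Figure D1:**
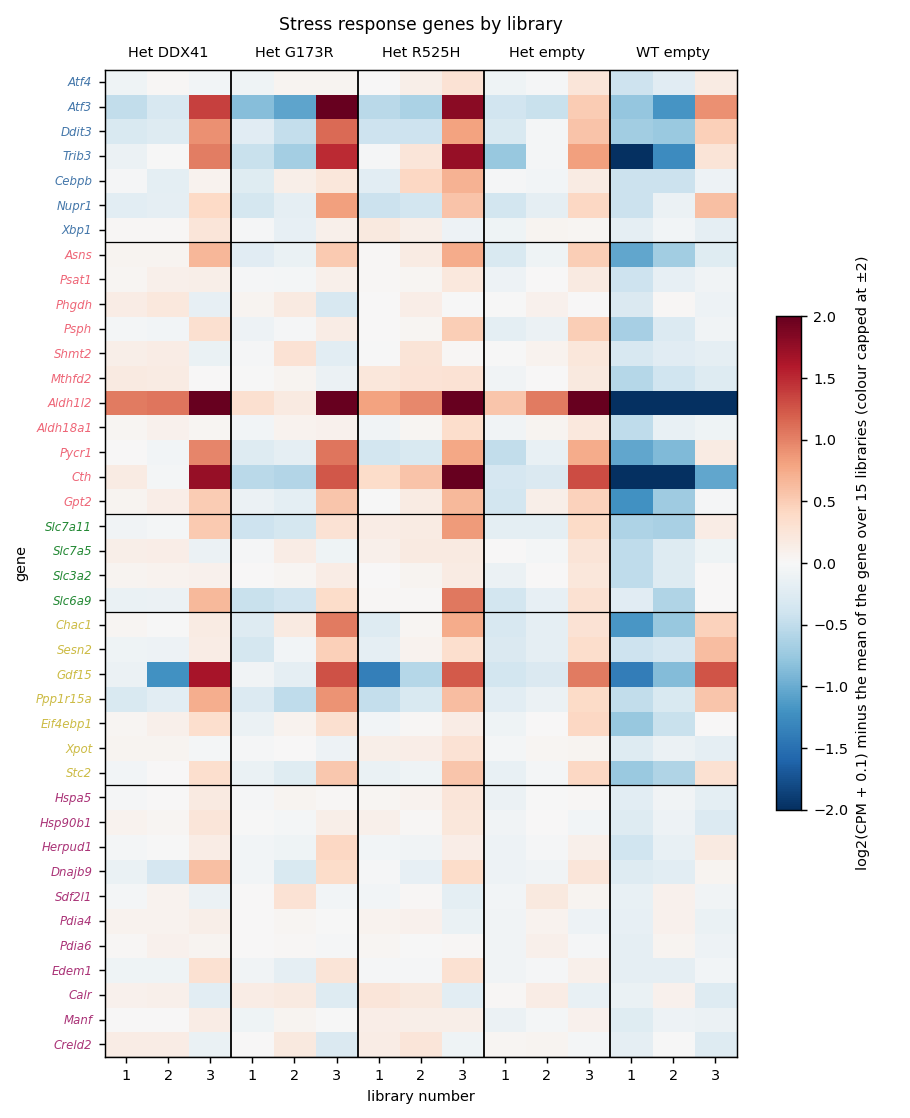
The heat map shows each of the 40 tested genes (rows, by role, in the colours of 5 roles) in each of the 15 libraries (columns, by group). Colour is log2(CPM + 0.1) minus the mean of the gene over the 15 libraries, capped at ±2. Most regulator, synthesis, transporter and feedback genes are redder in library 3 of each group, Aldh1l2 and Cth are bluest in WT empty, and most ER genes are pale throughout.

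The first comparison asked how the heterozygous line differed from the line with both copies, each with empty vector. In a model with no term but the group, 2 of the 40 members, the one-carbon genes Aldh1l2 and Mthfd2, were called higher in Het empty and 0 lower, where 1.9% of all genes were called higher. A call is a Benjamini-Hochberg adjusted p under 0.05 over all genes in edgeR's quasi-likelihood test. Same-numbered libraries of these groups deviated together, and with the library number added as a block 17 members were called higher and 0 lower, against 4.54% of all genes called higher. With the block, calls fell on 10 of 11 synthesis genes, 3 of 4 tested transporter genes, 3 of 7 feedback genes, 1 of 7 regulators and 0 of 11 ER genes. The median log2 fold change of the 40 members was 0.21 without the block, against -0.00 over all genes, and 38 of 40 were positive.

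Aldh1l2 makes a mitochondrial formate-handling enzyme of folate metabolism. It had 13.1, 18.3 and 37.9 CPM in Het empty libraries 1 to 3, against 0.0281, 0.0554 and 0.286 CPM in WT empty libraries. It was near absent from every WT empty library and the groups did not overlap. Its summed counts were 2268 in Het empty and 14 in WT empty, a ratio of 182 on scaled totals (95% interval 108 to 333, exact binomial, counting error only). The edgeR log2 fold change was 7.47 (95% interval 4.77 to 10.18, adjusted p = 0.00269).

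Mthfd2, a mitochondrial one-carbon enzyme, had 151, 159.9 and 183 CPM in Het empty libraries, against 107, 120.3 and 133 CPM in WT empty libraries. Every Het empty library was above every WT empty library. The log2 fold change was 0.45 (95% interval 0.25 to 0.65, edgeR adjusted p = 0.0105). The call was lost without WT empty library 1, where the log2 fold change was 0.38.

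With all 3 libraries of a group, the other called members named here were called only with the block. In libraries 1 and 2 alone, with no block, Asns, Cth, Gpt2, Pycr1, Slc7a11 and Eif4ebp1 were called higher too. Asns, asparagine synthetase and a classic ATF4 target, had 164, 191 and 284 CPM in Het empty libraries, against 98.8, 126 and 172 CPM in WT empty libraries. Each Het empty library was above the WT empty library of its number, but the groups overlapped, since library 3 of WT empty was above library 1 of Het empty. With the block its log2 fold change was 0.68 (95% interval 0.56 to 0.81, edgeR adjusted p = 1.98e-06), against an adjusted p of 0.321 without it. Cth, which makes cysteine from cystathionine, had 3.71, 3.86 and 11.9 CPM in Het empty libraries, against 0.843, 0.886 and 2.26 CPM in WT empty libraries. The groups did not overlap, and with the block the log2 fold change was 2.25 (95% interval 1.95 to 2.54, edgeR adjusted p = 4.12e-08), against an adjusted p of 0.154 without it. Gpt2, a mitochondrial alanine transaminase, had 39.4, 54.7 and 69.9 CPM in Het empty libraries, against 21.7, 30.8 and 49.9 CPM in WT empty libraries. Its groups overlapped and each numbered pair was higher in Het empty, with a blocked log2 fold change of 0.71 (edgeR adjusted p = 0.000812).

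Pycr1, an enzyme of proline synthesis, had 3.94, 5.05 and 9.43 CPM in Het empty libraries, against 2.67, 2.99 and 6.26 CPM in WT empty libraries. The groups overlapped through library 3 of WT empty, and the blocked log2 fold change was 0.64 (edgeR adjusted p = 0.00246). Slc7a11, the cystine importer xCT, had 119, 119.8 and 179 CPM in Het empty libraries, against 89.7, 87.3 and 152 CPM in WT empty libraries. It showed the same overlap, with a blocked log2 fold change of 0.37 (edgeR adjusted p = 0.000315). Eif4ebp1, which restrains cap-dependent translation, had 103, 111 and 147 CPM in Het empty libraries, against 64.9, 80.1 and 109.9 CPM in WT empty libraries. Its blocked log2 fold change was 0.51 (edgeR adjusted p = 0.000604), and library 1 of Het empty lay below library 3 of WT empty.

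Of the 7 regulators 1 was called with the block. Atf4 had 324, 339.9 and 406 CPM in Het empty libraries, against 257, 295 and 386 CPM in WT empty libraries, and the groups overlapped. Its blocked log2 fold change was 0.20 (95% interval 0.02 to 0.38, edgeR adjusted p = 0.190). Ddit3, which encodes the death-linked factor CHOP, had 7.52, 9.08 and 14.0 CPM in Het empty libraries, against 5.74, 5.54 and 13.1 CPM in WT empty libraries. The groups overlapped, and the blocked edgeR adjusted p was 0.0910. In libraries 1 and 2 alone Ddit3 was called higher (log2 fold change 0.57, edgeR adjusted p = 0.0353). Trib3, a pseudokinase induced by ATF4 and CHOP, was the called regulator, at 12.8, 21.1 and 38.6 CPM in Het empty libraries, against 4.55, 9.001 and 26.1 CPM in WT empty libraries. Its groups overlapped, and its blocked log2 fold change was 1.04 (edgeR adjusted p = 0.00738).

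Xbp1 had 97.3, 106 and 105 CPM in Het empty libraries, against 90.8, 99.4 and 90.5 CPM in WT empty libraries, and its groups overlapped. Hspa5 had 1081, 1168 and 1187 CPM in Het empty libraries, against 1015, 1112 and 1025 CPM in WT empty libraries. Neither was called, with blocked log2 fold changes of 0.14 and 0.12 (edgeR adjusted p = 0.455 and 0.278). The median of the 11 ER genes was 0.12 without the block and that of the 11 synthesis genes 0.45. All 22 values were positive, and the difference between the roles was not tested. Summed CPM of the 11 ER genes was 6047, 6539 and 6022 in Het empty libraries, against 5479, 6199 and 5411 in WT empty libraries. Their summed TPM went the other way, at 3041, 2865 and 2664, against 3124, 2928 and 3071. The direction of the ER sum thus depended on the unit. For the synthesis genes summed TPM was 1134, 1066 and 1226, against 991, 981 and 1246.

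Of the remaining members called with the block, Psph, the last enzyme of serine synthesis, had a log2 fold change of 0.40, Shmt2, which passes the serine carbon to folate, 0.35, Aldh18a1, an enzyme of proline synthesis, 0.31, and Psat1 0.24. The transporter genes Slc7a5 and Slc3a2, whose products pair in the membrane, had 0.35 and 0.28. Stc2, a secreted glycoprotein, had 0.41 and Xpot 0.21. Not called with the block were Phgdh (0.15), the glycine transporter gene Slc6a9 (0.20), Cebpb (0.35), Chac1 (0.37), Ppp1r15a (0.10), the mTORC1 inhibitor gene Sesn2 (-0.01), the chromatin-linked stress factor gene Nupr1 (-0.07), Atf3 (0.28) and Gdf15 (0.54, with a 95% interval from -0.82 to 1.90). The 11 ER genes ran from 0.04 for Pdia4 to 0.17 for Hsp90b1.

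By CPM, 31 of the 40 members (77.5%) were higher in Het empty in 3 of 3 numbered pairs, against 23.3% of all genes. Groups did not overlap by CPM for 9 members, all higher in Het empty (22.5%, against 8.33% of all genes). By TPM, some members called with the block were lower in Het empty in pair 3. Among them were Psat1 (435.5 TPM, against 470.2 TPM in WT empty), Slc7a11 (18.5 against 21.7) and Slc3a2 (179.5 against 197.5). Others stayed higher in that pair, among them Asns (135 against 106) and Cth (6.69 against 1.58). In libraries 1 and 2 alone, 13 of 39 testable members were called, all of them higher, against 7.4% of all genes called in either direction. Leaving out 1 library at a time, the blocked count lay between 9 and 17, with 9 without WT empty library 1 and 11 without Het empty library 3. Among the other pathway genes, all 16 cytosolic aminoacyl-tRNA synthetase genes, which charge tRNAs with amino acids, had positive log2 fold changes (median 0.24). With the block 8 of the 16 were called, all higher, against 4.54% of all genes called higher, and without it 0. Among the 8 were Cars at 0.39 (edgeR adjusted p = 0.000441) and Nars at 0.34 (edgeR adjusted p = 0.00368). Of 8 sensor and kinase genes, which include Eif2ak3 (PERK) and Eif2ak4 (GCN2), 0 were called in either fit.

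Markers of other cells moved too, in 2 of the lists in both directions. Of 10 neutrophil markers S100a8 (log2 fold change 3.54) and Fcnb (2.64) were called higher in Het empty and Mmp8 (-2.94) lower, and the sum was between 1047 and 2229 CPM in Het empty and between 913 and 1454 CPM in WT empty. Of 7 monocyte and macrophage markers Lyz2 (2.10) and Ly6c2 (4.38) were called higher and Ccr2 (-1.28), Adgre1 (-0.96) and Fcgr1 (-1.09) lower, and the sum was between 258 and 278 CPM in Het empty and between 464 and 570 CPM in WT empty. Of 8 mast cell and basophil markers 4 were called lower, led by Cma1 (-2.73), with 2 of the 8 at 0 in each group, and the sum was between 116 and 149 CPM in Het empty and between 171 and 249 CPM in WT empty. The sums were also lower for 7 lymphoid markers (57.6 to 72.7 CPM in Het empty, 82.4 to 101 CPM in WT empty), 7 erythroid markers (3.84 to 4.16 CPM in Het empty, 6.88 to 11.4 CPM in WT empty) and 4 stroma markers (72.7 to 77.9 CPM in Het empty, 93.7 to 107 CPM in WT empty). Of the 4 stroma markers Col1a1 and Dcn were at 0 in every library and Col1a2 reached at most 0.363 CPM. The stroma sum was thus nearly all Pdgfrb. What part the markers of other cells had in the stress gene differences was not tested.

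**Figure D2:**
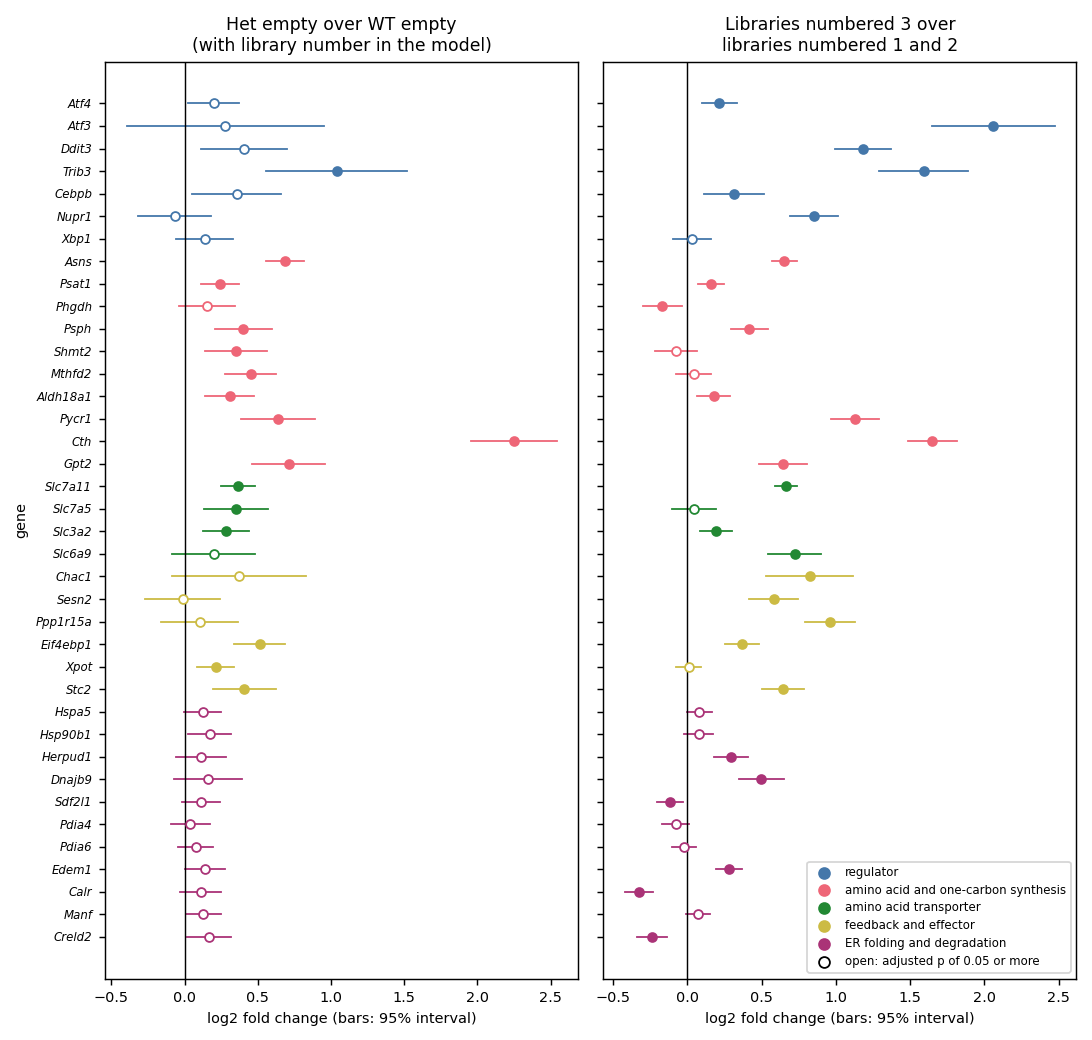
Each row is 1 of 38 genes, coloured by role, with its log2 fold change (x axis) and 95% interval; filled points have an adjusted p under 0.05. The left panel is Het empty over WT empty with the library number in the model, and the right panel is libraries numbered 3 over those numbered 1 and 2; Aldh1l2 and Gdf15 are left out because they run past the scale. On the left panel Phgdh is the 1 synthesis gene shown with an open point, and all 11 ER genes have open points. On the right panel Atf3, Cth and Trib3 lie farthest right, at 2.06, 1.65 and 1.59, and Calr lies farthest left, at -0.33.

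The vector comparisons within the heterozygous line asked whether DDX41 or its variants moved these genes. No member was called in any of the 6 without the block when all 3 libraries of a group were used. In libraries 1 and 2 alone 0 were called for Het DDX41 over Het empty (0% of all genes), Het G173R over Het empty (0%), Het G173R over Het DDX41 (0.00693%) and Het R525H over Het DDX41 (0.097%). For Het DDX41 over Het empty 0 of 40 were called by edgeR, DESeq2 or limma voom, 0 had an unadjusted p under 0.05, and 0% of all genes were called. The member with the smallest p was Hsp90b1, at 1602, 1562 and 1791 CPM in Het DDX41 libraries, against 1443, 1520 and 1469 CPM in Het empty libraries. Its groups did not overlap by CPM, and the log2 fold change had a 95% interval of -0.01 to 0.33. By TPM they overlapped, with 515 TPM in Het DDX41 library 2 and 527 TPM in Het empty library 1. Next in order were Pdia4, a disulfide isomerase, with a log2 fold change of 0.11, and Hspa5 with 0.09.

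For Het G173R over Het empty 0 of 40 were called by edgeR, DESeq2 or limma voom, 0 had an unadjusted p under 0.05, and 0% of all genes were called. Chac1, which degrades glutathione, had 5.63, 7.65 and 14.0 CPM in Het G173R libraries, against 5.38, 5.94 and 8.28 CPM in Het empty libraries, and the groups overlapped. Atf3, a stress-induced repressor, had 3.49, 3.04 and 27.2 CPM in Het G173R libraries, against 4.90, 4.67 and 9.18 CPM in Het empty libraries. Only library 3 of Het G173R was above the Het empty libraries, and the log2 fold change of 0.86 (95% interval -1.10 to 2.81) was -0.95 without it. Hsp90b1 had a log2 fold change of 0.06.

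For Het R525H over Het empty 0 of 40 were called by edgeR, DESeq2 or limma voom, 2 had an unadjusted p under 0.05, and 0.0137% of all genes were called. Xpot, the tRNA export factor, had 385, 392 and 438 CPM in Het R525H libraries, against 349, 367 and 369 CPM in Het empty libraries. Mthfd2 had 187, 193 and 194 CPM in Het R525H libraries, against 151, 159.9 and 183 CPM in Het empty libraries. Neither pair of groups overlapped, at log2 fold changes of 0.16 and 0.22 with edgeR adjusted p = 0.917 and 0.935. Hspa5, next in order, had a log2 fold change of 0.15. In libraries 1 and 2 alone 1 member, Slc7a11, was called higher (log2 fold change 0.35, edgeR adjusted p = 0.0439), against 0.132% of all genes called.

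Against Het DDX41, 0 of 40 were called for either variant by edgeR, DESeq2 or limma voom, and 0% of all genes were called for both. Unadjusted p values under 0.05 numbered 0 for Het G173R and 1, Xpot, for Het R525H. For Het G173R over Het DDX41 the log2 fold changes of the leading members were -0.14 for Mthfd2, -0.13 for Xbp1 and -0.10 for Hsp90b1. For Het R525H over Het DDX41 they were 0.16 for Xpot, 0.39 for Cebpb, a C/EBP partner of ATF4, and 0.14 for Mthfd2.

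Het R525H over Het G173R gave 0 calls among 40 by edgeR, DESeq2 or limma voom (2 with an unadjusted p under 0.05; 0.0825% of all genes called). With the block 2 members were called higher, against 0.385% of all genes called higher. Slc7a11 had 151, 154 and 249 CPM in Het R525H libraries, against 103, 108 and 168 CPM in Het G173R libraries. Every number was higher in Het R525H, though the groups overlapped, and the blocked log2 fold change was 0.54 (95% interval 0.43 to 0.66, edgeR adjusted p = 0.000197). Cth had 6.15, 7.08 and 20.2 CPM in Het R525H libraries, against 3.23, 3.14 and 11.3 CPM in Het G173R libraries. Its groups overlapped likewise, with a blocked log2 fold change of 0.97 (95% interval 0.71 to 1.22, edgeR adjusted p = 0.000937). Both handle the supply of cysteine, and both were called in libraries 1 and 2 alone, the only 2 members called there, against 0.263% of all genes. The blocked count was 2 with any 1 library of these groups left out.

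The vector groups were also set against WT empty, which all 4 heterozygous groups share as their control. Het DDX41 over WT empty had 3 members called higher (2.36% of all genes called higher), Het G173R 2 (2.12%) and Het R525H 8 (3.09%), with 0 called lower in each. In libraries 1 and 2 alone, 19, 16 and 22 of 39 testable members were called for Het DDX41, Het G173R and Het R525H over WT empty, all higher, where 9.06%, 7.85% and 13.2% of all genes were called in either direction. Aldh1l2 had 18.4, 18.7 and 70.3 CPM in Het DDX41 libraries, 11.1, 10.1 and 53.4 CPM in Het G173R libraries and 15.7, 17.5 and 71.4 CPM in Het R525H libraries. All 9 were above the WT empty values given above, with log2 fold changes of 8.10, 7.58 and 8.05 (edgeR adjusted p = 0.00131, 0.00236 and 0.00112). Mthfd2 was called in all 3, with log2 fold changes of 0.53, 0.38 and 0.67 for Het DDX41, Het G173R and Het R525H over WT empty (edgeR adjusted p = 0.00333, 0.0310 and 0.000382). Its call for Het G173R was lost without library 1 or 2 of either group, with log2 fold changes of 0.31 to 0.37.

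Hsp90b1 was the other member called for Het DDX41, at the CPM given above against 1269, 1416 and 1251 CPM in WT empty libraries. Its groups did not overlap by CPM (log2 fold change 0.33, edgeR adjusted p = 0.0258), and the call was lost without library 1 or 3 of either group (0.25 to 0.35). By TPM these groups overlapped, with 515 TPM in Het DDX41 library 2 and 521 TPM in WT empty library 1. The 8 for Het R525H were Mthfd2, Aldh1l2, Xpot, Hsp90b1, Cth, Manf, Slc7a5 and Hspa5. Manf encodes a secreted ER stress factor and Slc7a5 the large neutral amino acid transporter LAT1. By CPM the groups overlapped for none of the 8. Among all 40 members 16 were higher without overlap (40%, against 11.7% of all genes). For Het DDX41 over WT empty it was also 16 (40%, against 10.5%), and for Het G173R 10 (25%, against 7.27%). By TPM the Het R525H and WT empty groups overlapped for Hsp90b1, Manf, Slc7a5 and Hspa5. Log2 fold changes were 0.37 for Xpot (edgeR adjusted p = 0.00306), 0.33 for Hsp90b1 (0.0208), 3.05 for Cth (0.0277), 0.27 for Manf (0.0331), 0.43 for Slc7a5 (0.0360) and 0.28 for Hspa5 (0.0418). Mthfd2, Aldh1l2 and Xpot were called with any 1 library left out; the count was 3 without Het R525H library 3 or WT empty library 1, 4 without WT empty library 2, 5 without Het R525H library 1 or 2 and 9 without WT empty library 3.

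**Figure D3:**
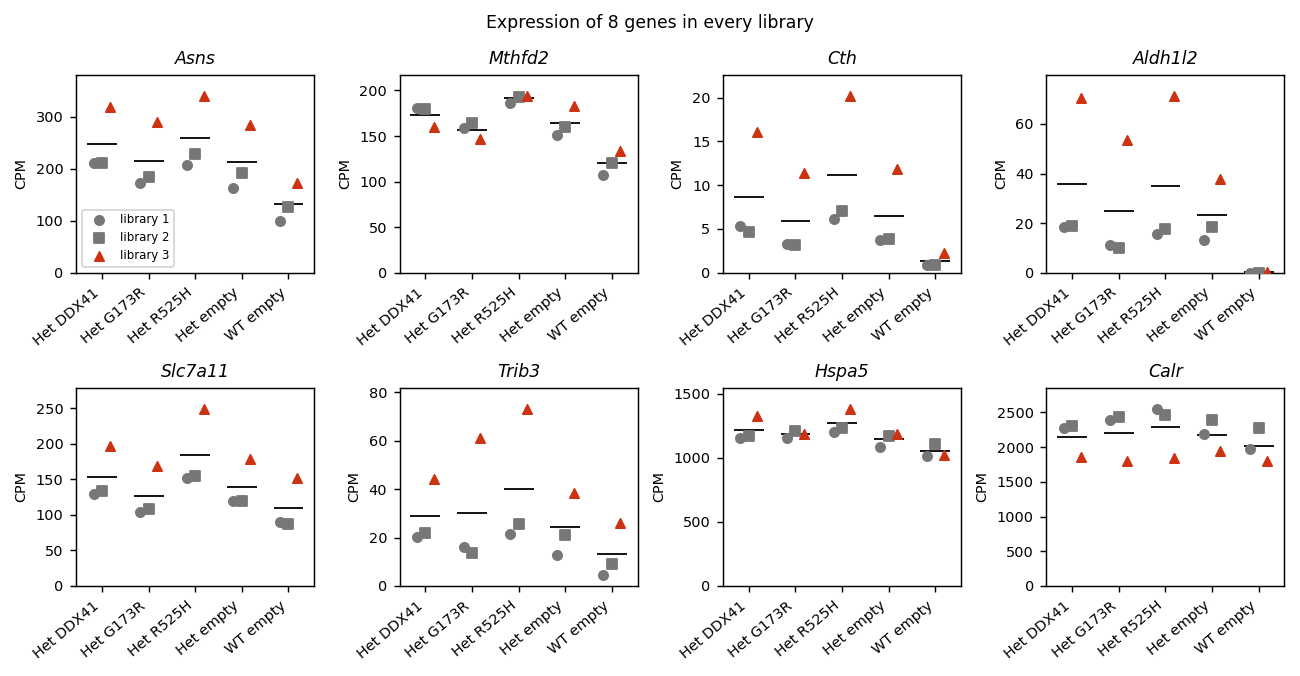
The plot shows CPM (y axis, from 0) of 8 genes in every library, by group (x axis), with a line at the mean of each group. Circles, squares and red triangles are libraries 1, 2 and 3. Asns, Cth, Slc7a11 and Trib3 have their triangle on top in all 5 groups, Calr has it at the bottom, and Aldh1l2 lies near 0 in WT empty.

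The libraries numbered 3 were then set against those numbered 1 and 2 within each group. Of the 40 members 26 were called higher and 4 lower, in an experiment where 21.1% of all genes were called higher and 25% lower. The median log2 fold change was 0.30, against -0.00 over all genes. By role, called higher were 6 of 7 regulators, 8 of 11 synthesis genes, 3 of 4 tested transporter genes, 6 of 7 feedback genes and 3 of 11 ER genes. Called lower were Calr, Creld2 and Sdf2l1 of the ER genes and Phgdh, the first enzyme of serine synthesis. In 5 of 5 groups library 3 was the highest for 24 members (60%, against 12.2% of all genes) and the lowest for 2, Calr and Creld2 (5%, against 14.9%).

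Among the regulators, Ddit3 had 17.8, 20.5, 16.3, 14.0 and 13.1 CPM in libraries numbered 3 of Het DDX41, Het G173R, Het R525H, Het empty and WT empty, against 5.54 to 9.08 CPM (median 7.26) in the 10 libraries numbered 1 or 2. The ranges did not overlap, and the log2 fold change was 1.18 (95% interval 0.995 to 1.37, edgeR adjusted p = 3.93e-07). Trib3 had 44.3, 61.3, 73.04, 38.6 and 26.1 CPM in the libraries numbered 3, in the same order, against 4.55 to 25.8 CPM (median 18.03) in the others. Its ranges did not overlap either (log2 fold change 1.59, edgeR adjusted p = 1.53e-06). Atf4 differed less, at 333, 359, 419, 406 and 386 CPM in the libraries numbered 3, against 257 to 374 CPM (median 332) in the others. The ranges overlapped, with a log2 fold change of 0.21 (95% interval 0.10 to 0.33, edgeR adjusted p = 0.00578). Xbp1 had 122, 110.2, 95.5, 105 and 90.5 CPM in the libraries numbered 3, against 90.8 to 117 CPM (median 103) in the others, and was not called (log2 fold change 0.03, edgeR adjusted p = 0.699).

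Cth had the smallest p among the synthesis genes, at 16.0, 11.3, 20.2, 11.9 and 2.26 CPM in the libraries numbered 3, against 0.843 to 7.08 CPM (median 3.79) in the others. The ranges overlapped only because of WT empty (log2 fold change 1.65, 95% interval 1.49 to 1.82, edgeR adjusted p = 5.74e-09). Aldh1l2 showed a log2 fold change of 1.93 (edgeR adjusted p = 9.54e-08), with 53.4 CPM as the median of the libraries numbered 3 and 14.4 CPM as that of the others. Pycr1 ranged from 6.26 to 11.9 CPM in the libraries numbered 3 and from 2.67 to 5.63 CPM in the others, without overlap (log2 fold change 1.13, edgeR adjusted p = 1.77e-07). Asns, whose motif is printed above, had 319.6, 290.3, 340.4, 284 and 172 CPM in the libraries numbered 3, against 98.8 to 228 CPM (median 188) in the others. Only WT empty brought the ranges together (log2 fold change 0.65, 95% interval 0.57 to 0.74, edgeR adjusted p = 7.00e-08). Mthfd2, called between the lines, was not called here (log2 fold change 0.04, edgeR adjusted p = 0.558).

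Slc7a11 had 197, 168, 249, 179 and 152 CPM in the libraries numbered 3, against 87.3 to 154 CPM (median 119) in the others. The ranges met at WT empty library 3 (log2 fold change 0.66, 95% interval 0.59 to 0.74, edgeR adjusted p = 1.83e-08). Ppp1r15a, the GADD34 subunit that dephosphorylates eIF2, had 39.6, 44.8, 36.9, 31.1 and 35.3 CPM in the libraries numbered 3, against 16.9 to 22.2 CPM (median 19.4) in the others. Its ranges did not overlap (log2 fold change 0.96, edgeR adjusted p = 9.66e-07). Across all members, 11 of 40 had every library numbered 3 above every other library (27.5%, against 4.47% of all genes) and 1, Calr, had every one below (against 6.63%).

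The remaining members called higher in the libraries numbered 3 were led by 2 of low level, Gdf15 with a log2 fold change of 2.56 (95% interval 1.75 to 3.38) and Atf3 with 2.06 (95% interval 1.65 to 2.48). Atf3 ranged from 9.18 to 27.2 CPM there and from 2.77 to 5.13 CPM in the others, without overlap. Log2 fold changes of 0.58 to 0.85 were found for Nupr1 (0.85), Chac1 (0.83), Slc6a9 (0.72), Stc2 (0.65), Gpt2 (0.64) and Sesn2 (0.58). Psph had 0.42, Eif4ebp1 0.37, Cebpb 0.31, Slc3a2 0.19, Aldh18a1 0.18 and Psat1 0.16. Phgdh fell by 0.17 on the log2 scale, and Shmt2, Slc7a5 and Xpot were not called (-0.08, 0.04 and 0.01).

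Of the ER genes, Hspa5 had 1329, 1189, 1380, 1187 and 1025 CPM in the libraries numbered 3, against 1015 to 1236 CPM (median 1163) in the others. The ranges overlapped and it was not called (log2 fold change 0.08, 95% interval -0.00 to 0.17, edgeR adjusted p = 0.107). Calr ranged from 1802 to 1950 CPM in the libraries numbered 3 and from 1970 to 2549 CPM in the others, and fell by 0.33 on the log2 scale (95% interval -0.42 to -0.23, edgeR adjusted p = 5.98e-05). The 3 ER genes called higher were Dnajb9, a BiP co-chaperone, at 0.50, Herpud1, a degradation factor, at 0.30, and Edem1, which marks misfolded glycoproteins for degradation, at 0.28. Creld2 and Sdf2l1, both induced by ER stress, fell by 0.24 and 0.12 on the log2 scale, while Hsp90b1, Manf, Pdia4 and Pdia6 were not called (0.08, 0.07, -0.08 and -0.02). Set by motif, the 8 genes with the C/EBP-ATF element were all called higher, with log2 fold changes of 0.30 to 2.06 (median 0.84), where 21.1% of all genes and 26 of the 40 members were. Of the 5 with the ER stress response element 0 were called higher and 2 lower, with log2 fold changes of -0.33 to 0.08. Herpud1, which holds both the C/EBP-ATF element and ERSE-II, was called higher. For Het empty over WT empty, 0 of the 8 were called without the block and 4 with it (unblocked log2 fold changes of -0.09 to 0.87, median 0.31), and 0 of the 5 in either fit (0.08 to 0.17). The difference between the motif groups was not tested.

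**Figure D4:**
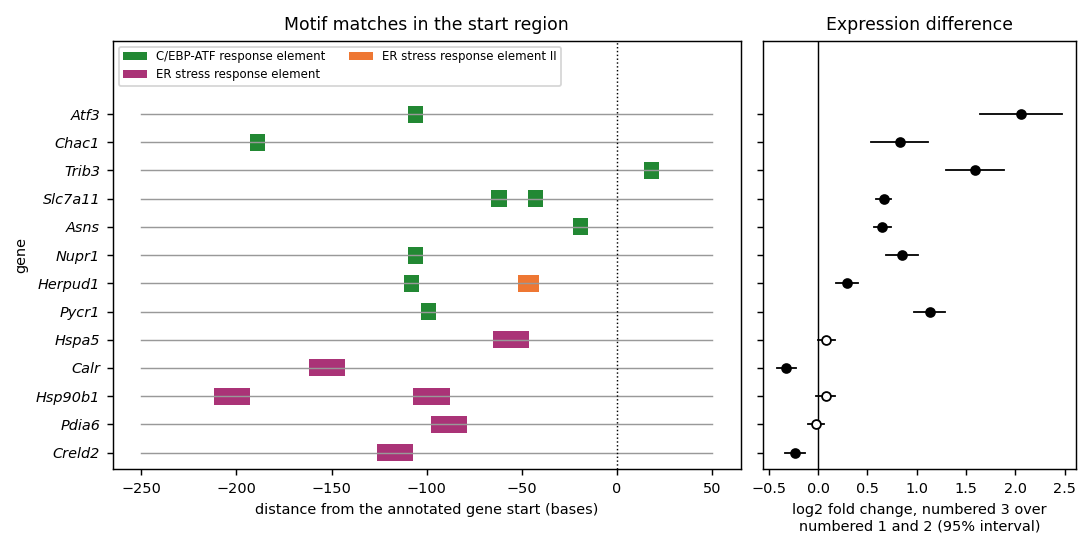
The left panel maps motif matches in the start regions of 13 genes, by distance from the annotated start in bases. The right panel gives the log2 fold change of libraries numbered 3 over libraries numbered 1 and 2 with its 95% interval, filled where the adjusted p was under 0.05. The 8 genes with the C/EBP-ATF element lie to the right of 0 and the 5 with the ER stress response element lie near or left of 0.

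Of the 52 other pathway genes, 18 were called higher (against 21.1% of all genes) and 12 lower (against 25%) in the libraries numbered 3. Sars, the seryl-tRNA synthetase, had a log2 fold change of 0.46 (edgeR adjusted p = 1.10e-06), and 8 of 16 synthetase genes were called higher and 2 lower. A further list held genes of eIF2, of eIF2B, the exchange factor that phosphorylated eIF2 blocks, and Ppp1r15b, which is part of neither. Of its 8 genes 1 was called higher and 4 lower, among them Eif2b4 at -0.39 (edgeR adjusted p = 0.000245). Atf6 was called higher at 0.50 (edgeR adjusted p = 5.43e-07), while Eif2ak3 and Ern1, the ER sensors PERK and IRE1, were not called.

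The number of members called lay between 27 and 32 with any 1 library left out, and libraries numbered 2 over those numbered 1 gave 0 calls among members and 0% of all genes by edgeR, with 5 members at an unadjusted p under 0.05. The sum of the 10 neutrophil markers was 705 to 1047 CPM in the libraries numbered 3 and 1291 to 2236 CPM in the others; 5 of the 10, led by Elane and Mpo, were called lower and 2, Ltf and Ngp, higher. The sum of 8 progenitor markers was 2791 to 3238 CPM in the libraries numbered 3 and 3146 to 3618 CPM in the others. The part of these cell type markers in the stress gene differences was not tested.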

How the data were processed

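RNA from 15 samples in 5 groups of 3 was sequenced after removal of ribosomal RNA with a stranded kit, per the labels' protocols. The authors deposited expected counts, which RSEM can split between genes, with TPM and FPKM columns per the file headers; RSEM is named in the submitters' processing notes, while its version, the aligner, the build and the strand setting are not given in sources used here. Deposited TPM served to compare levels between genes, and deposited FPKM was not used. Ddit3 stands for 2 identifiers, of which the one with the higher mean was taken.

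Rounded to whole numbers, the expected counts entered edgeR 4.0.16 (R 4.3.3) with filterByExpr, TMM (factors 0.969 to 1.06), 1 quasi-likelihood model over 15 libraries with group as its term, and Benjamini-Hochberg adjustment over 14548 genes at 0.05. The fit was tested on simulated data. Libraries numbered 3 were compared with group as a term. Alternatives were limma 3.58.1 voom, DESeq2 1.42.0, its size factors, no filter, 2 groups only, the replicate block, libraries 1 and 2 alone and each library left out. The numbers were taken to pair samples where all 3 correlations of deviations from the group means exceeded 0.1. That held for Het empty and WT empty (0.358 to 0.490), Het G173R and Het empty, and the 3 pairs of DDX41 vector groups. Deviations within a group balance out, so a shift of library 3 shared by 2 groups can make all 3 correlations positive. The rule thus cannot tell matched samples from such a shift. No source says that the 3 samples of a group came from separate cultures; p-values then measure only how these samples vary, which may be technical. The members, the lists and the comparison by library number were chosen with earlier results of these data known. Values in every library are given for Atf4, Ddit3, Xbp1, Hspa5 and Asns and for up to 8 called members with the smallest p, or for the leading 3 where none was called. Trib3 between the lines, and Calr, Dnajb9, Herpud1 and Edem1 by library number, were named after their values were seen.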

Additional observations from a re-analysis of the deposited data

How the results depend on the processing

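Counts of called members depended most on how the library number was treated. With the replicate block all members called were higher. Over WT empty there were 17 for Het empty (4.54% of all genes called higher) and 19 for Het DDX41 (6.37%). There were 17 for Het G173R (5.13%) and 25 for Het R525H (8.42%). Het R525H over Het empty had 2, Slc7a11 and Cth (0.11%), and Het R525H over Het G173R had 2 (0.385%). The block changed no other count. Same-numbered samples did not all deviate together for Het DDX41, Het G173R and Het R525H over WT empty (lowest correlations -0.08, 0.10 and 0.02) or for Het DDX41 and Het R525H over Het empty (-0.03 and 0.07). In libraries 1 and 2 alone the same comparisons gave 13, 19, 16, 22, 1 and 2, and libraries numbered 2 over those numbered 1 gave 0. Het empty over WT empty gave 1 with voom and 1 in a fit of only the 2 groups. Het G173R over WT empty gave 1 with voom, 1 without the filter and 1 with only the 2 groups; Het R525H over WT empty gave 4 with only the 2 groups, and DESeq2 gave 6 for Het DDX41 over WT empty. With 1 library left out, counts ranged from 1 to 3 for Het empty, 2 to 4 for Het DDX41, 1 to 4 for Het G173R and 3 to 9 for Het R525H, each over WT empty, from 9 to 17 for Het empty over WT empty with the block, and from 27 to 32 for libraries numbered 3. The log2 fold change of Atf3 for Het G173R over Het empty became -0.56 in libraries 1 and 2 alone and ranged from -0.95 (without Het G173R library 3) to 1.31 with 1 library left out, and that of Xbp1 for libraries numbered 3 became -0.0078 without that library. The cause was not tested. The leave-one-out fits with the block were chosen after seeing the data. Depth limits Gdf15 in every group and Aldh1l2 in WT empty, which had few reads.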
